A study of Mus musculus with 6 samples.

Results

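Caspases are cysteine proteases that carry out programmed cell death and inflammatory processing, and the DNA fragmentation factors are the nuclease and inhibitor pair on which they act in the nucleus. The data described here are the 8 genes of this group that were chosen by name: the initiator caspases Casp2, Casp8 and Casp9, the executioner caspase Casp6, the inflammatory caspase Casp1, the caspase Casp12 that is linked to the endoplasmic reticulum (ER), and the DNA fragmentation factors Dffa and Dffb. Each was found on 1 probe set with a single gene symbol, so 8 of 8 were measured, among 22180 genes in all. The group was proposed with the genotype contrast of these same arrays already known. The differences of the 8 genes between genotypes are therefore given as a description, and their places in the fit across all genes support nothing further.

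RNA came from isolated pancreatic islets, in which the β cells make insulin, of C57BL/6J mice that were 5 weeks old and labelled female. The 3 wildtype samples came from littermates with floxed Sel1L alleles (Sel1L f/f), and the 3 Sel1L-deficient samples from floxed mice that also carried Ins1Cre, a Cre recombinase placed at the Ins1 locus, which is active in β cells. The floxed alleles were thus shared by both groups and Ins1Cre was not, and a control with Ins1Cre alone is not analysed here. Islets also hold α, δ and other cells that Ins1Cre does not target, and all islets spent a night in culture before RNA was extracted. The labels do not say how many mice stand behind an array, so the spread between arrays may be partly technical.

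In the textbook pathway, an initiator caspase is switched on by a signal from a death receptor (caspase-8), from mitochondria through the apoptosome (caspase-9) or from the PIDDosome (caspase-2), and it then cuts executioner caspases. Executioner caspases cleave the inhibitor ICAD, the product of Dffa, which releases the nuclease CAD, the product of Dffb, to cut chromatin between nucleosomes. ICAD also acts as the chaperone that CAD needs in order to fold. Most of this control lies in protein cleavage, which an RNA array does not record.

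Dffb was the member that differed most between genotypes, while its partner Dffa and the 6 caspases differed little. The promoters of the partner pair are shown because Dffb passed the threshold and Dffa did not. Each window runs from 250 bases before to 50 bases after the RefSeq start (build GRCm38.p6), with motif matches on either strand in capitals.
Dffb promoter, chr4:153975032-153975331, minus strand: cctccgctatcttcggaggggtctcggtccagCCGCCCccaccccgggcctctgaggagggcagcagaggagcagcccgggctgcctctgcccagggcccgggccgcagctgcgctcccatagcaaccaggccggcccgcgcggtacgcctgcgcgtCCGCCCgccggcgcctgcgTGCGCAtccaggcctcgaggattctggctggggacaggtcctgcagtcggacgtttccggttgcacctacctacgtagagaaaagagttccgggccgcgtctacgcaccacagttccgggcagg
Dffa promoter, chr4:149103892-149104191, plus strand: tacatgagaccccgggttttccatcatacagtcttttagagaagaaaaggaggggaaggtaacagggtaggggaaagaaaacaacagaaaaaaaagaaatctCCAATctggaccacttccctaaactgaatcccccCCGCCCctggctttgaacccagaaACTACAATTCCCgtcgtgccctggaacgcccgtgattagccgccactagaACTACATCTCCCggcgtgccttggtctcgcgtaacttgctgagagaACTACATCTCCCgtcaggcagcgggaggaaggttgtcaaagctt
The Dffb window was 71.3% G and C with 32 CpG pairs, and the Dffa window 51% with 13 CpG pairs, against medians of 52.7% and 7.0 over 32851 promoter windows of the same length. The capitals in Dffb mark 2 GC boxes (GGGCGG, held by 35.7% of all windows) and 1 core of the NRF1 site (TGCGCA, 7.76%). Those in Dffa mark 1 GC box, 1 CCAAT box (CCAAT, 37.4%) and 3 copies of the ZNF143 site (held by 1.81% of all windows), which began at -90, -40 and 6 from the start. The motifs were chosen after the windows had been read. In the windows of all 8 genes, 0 held the ER stress element (0.119%, a motif that contains the CCAAT box), 0 the unfolded protein response element (TGACGTGG, 0.676%, which contains TGACGT), 0 the core of the cAMP response element (TGACGT, 7.51%), 0 the composite site of ATF4 and CHOP (TGATGNAAT, 0.965%) and 0 a TATA box (TATAAA, 13.6%). These are matches of letters, and no binding was measured. Among the caspases, the windows of Casp9, Casp2 and Casp6 were rich in G and C (66%, 63.7% and 62%), and those of Casp1, Casp8 and Casp12 were poorer (48%, 42% and 41%).

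Dffb encodes CAD, the nuclease that cuts chromatin between nucleosomes in dying cells. On the deposited log2 scale its wildtype arrays read 3.45, 3.68 and 3.58 and its Sel1L-deficient arrays 2.60, 2.67 and 2.88. All 3 deficient arrays lay below all 3 wildtype arrays. The group means were 3.57 ± 0.12 (SD, n = 3) and 2.72 ± 0.15 (SD, n = 3), a 1.80-fold lower value in the deficient islets. The log2 difference was -0.85 ± 0.12 (SE), with a 95% interval of -1.12 to -0.58. In the limma fit across all 22180 genes Dffb stood at rank 44 by p (Benjamini-Hochberg adjusted p = 0.041), which made it 1 of the 34 genes that fell. Genes past the adjusted threshold of 0.05 made up 0.243% of all genes, 0.153% on the lower and 0.0902% on the higher side, and 1 of the 8 members was past it, on the lower side. Groups that did not overlap were found in 15.1% of all genes, 7.84% with the deficient arrays lower, and in 1 of the 8 members.

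The Dffb signal lay at the dim end of the arrays. The medians of the 6 arrays over all probe sets were 3.08 to 3.16, so the wildtype values stood just above them and the deficient values below. The table holds no detection calls, and a fold at this level is not exact. When every value under its array median was raised to that median, a setting chosen after the data had been seen, the difference was -0.44 (limma adjusted p = 0.104). The call was also lost in each of the 6 fits that left out 1 array, where the difference was -0.93 to -0.79 with limma adjusted p from 0.0706 to 0.203. The sign could not turn in those fits, since the groups do not overlap. No second probe set for Dffb was available to set beside the first, and where its probes lie in the transcript is not given in the sources used here.

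**Figure D1:**
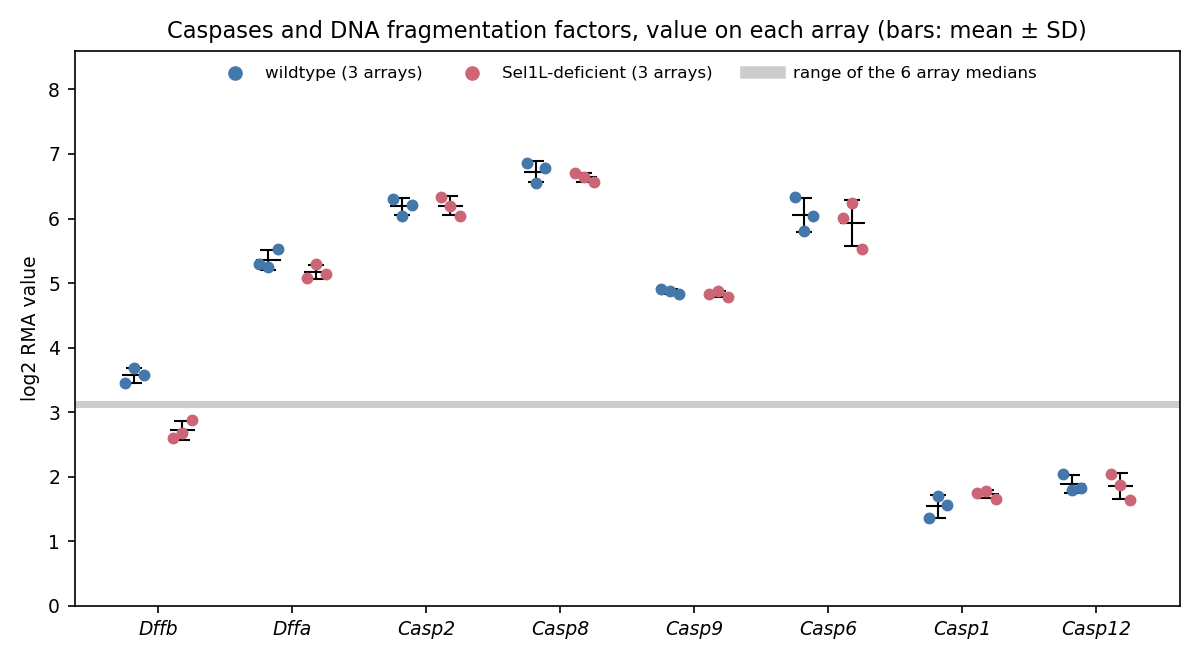
Log2 RMA value (y axis) of each of the 8 genes (x axis) on the 3 wildtype (blue) and 3 Sel1L-deficient (red) arrays, with bars for mean ± SD and a grey band for the range of the 6 array medians, 3.08 to 3.16. Only the Dffb groups lie apart, on either side of the band, and Casp1 and Casp12 lie below it on all 6 arrays; heights of different genes are not comparable, since their probes differ.

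Dffa encodes ICAD, the inhibitor and chaperone of that nuclease. Its wildtype arrays read 5.29, 5.24 and 5.54 and its deficient arrays 5.08, 5.29 and 5.15. The groups overlapped, since the second deficient array stood level with the first wildtype array. The difference was -0.18 ± 0.12 (SE) and its 95% interval ran from -0.46 to 0.09. Dffa was not past the threshold (limma adjusted p = 0.715). That interval does not reach the -0.85 estimated for Dffb, but it holds the -0.44 that Dffb gave with the floor at the array median. The difference between the 2 genes' changes was not tested, as both belong to the contrast from which the group was chosen.

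The 3 initiator caspases lay within 0.09 of no difference. Casp2, the caspase of the PIDDosome, read 6.30, 6.04 and 6.22 in wildtype and 6.34, 6.20 and 6.04 in deficient islets, so the 2 sets covered nearly the same range. Its difference was 0.01 ± 0.12 (SE), with a 95% interval of -0.27 to 0.29. Casp8, which acts below death receptors, read 6.85, 6.55 and 6.78 in wildtype and 6.71, 6.64 and 6.56 in deficient islets. All 3 deficient values fell inside the wildtype range. Its difference was -0.09 ± 0.12 (SE), with an interval of -0.35 to 0.18. Casp9, the caspase of the apoptosome, had the smallest spread of the 8 genes, with 4.90, 4.87 and 4.82 in wildtype and 4.83, 4.87 and 4.79 in deficient islets. The groups overlapped and the difference was -0.04 ± 0.10 (SE), with an interval of -0.26 to 0.18.

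Casp6, the executioner of the group, cleaves lamins among other proteins and was the most variable member. Its wildtype arrays read 6.33, 5.80 and 6.04 and its deficient arrays 6.01, 6.24 and 5.53. The highest value was a wildtype array and the lowest a deficient one, with the rest mixed. The difference was -0.13 ± 0.20 (SE; 95% interval -0.59 to 0.33). It turned to 0.07 without Sel1L-deficient replicate 3.

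Casp1, the protease that matures interleukin-1β and interleukin-18 in inflammasomes, read 1.35, 1.70 and 1.56 in wildtype and 1.75, 1.77 and 1.65 in deficient islets. The groups overlapped at a single pair of arrays, wildtype replicate 2 and Sel1L-deficient replicate 3. The difference was 0.19 ± 0.12 (SE), with an interval of -0.08 to 0.46. Casp12, a rodent caspase found at the ER membrane and studied in ER stress, read 2.04, 1.79 and 1.82 in wildtype and 2.04, 1.88 and 1.64 in deficient islets. The groups overlapped, with their highest values level and the lowest, 1.64, on a deficient array. The difference was -0.03 ± 0.13 (SE), with an interval of -0.34 to 0.28.

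All values of Casp1 and Casp12 lay below the median of their array. The table holds no detection calls, so whether either RNA was above background is not settled. Over the 7 members other than Dffb the limma adjusted p ran from 0.703 to 0.993, and 0 had an unadjusted p under 0.05. The median difference of all 8 was -0.06, with 6 lower and 2 higher, beside 0.00 over all genes.

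**Figure D2:**
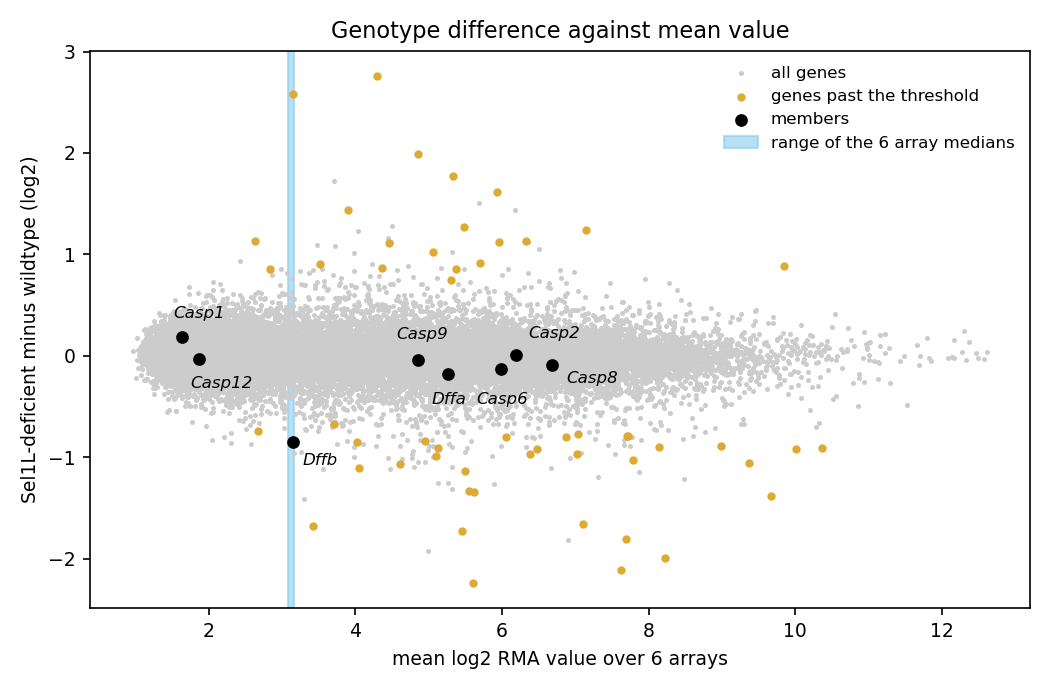
Sel1L-deficient minus wildtype log2 difference (y axis) against the mean log2 RMA value over 6 arrays (x axis) for 22180 genes (grey), the 54 genes past the threshold (yellow) and the 8 members (black), with the array medians as a blue band. Dffb lies at -0.85 inside the band, and the other 7 members lie within 0.19 of 0.

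Sel1l itself, the deleted gene, read 8.46 to 8.76 in wildtype and 7.65 to 7.73 in deficient islets, a 1.87-fold lower value (limma adjusted p = 0.0312) that went with the genotype label on all 6 arrays. Replicate 3 of each genotype went against the label female, with Xist at 2.93 and 3.08 (9.93 to 10.4 on the other 4 arrays) and 3 Y-linked genes at 5.39 to 7.31 (1.20 to 2.07 on the other 4). With those 2 arrays left out, Dffb differed by -0.93 (limma adjusted p = 0.196, when 1 gene in all passed), and the other 7 members by -0.08 to 0.23. The same arrays carried more acinar RNA, with a mean log2 value over 5 acinar markers of 9.32 and 9.10 against 6.71 to 8.14 on the others. Islet identity was clear in the hormone genes, with Ins2 at 10.5 to 11.2 and Gcg and Sst at 12.4 to 12.7. Of 9 measured β-cell markers 4 fell and 0 rose.

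Markers of several cell types moved between genotypes together with Dffb. All 9 measured β-cell markers were lower on each deficient array than on any wildtype array, where 7.84% of all genes were. The sizes were uneven, from -2.11 for Mafa to -0.07 for Slc30a8 with a median of -0.66, and Iapp differed by only -0.09. The summed linear level of the 9 was 11712 to 13493 in wildtype and 8875 to 9200 in deficient islets. The sums of 10 endothelial markers were 1134 to 1501 and 1692 to 1932, and those of 9 mesenchymal markers 294.1 to 441.2 and 462.1 to 547.7, higher in the deficient islets without overlap. By mean log2 value the endothelial list did not overlap either (6.09 to 6.50 and 6.59 to 6.78), but the mesenchymal list did (4.29 to 5.13 and 5.06 to 5.35). In limma 0 of either list passed over all genes, with 7 of 10 (70%) and 3 of 9 (33.3%) at an unadjusted p under 0.05, beside 9.48% of all genes. In whole islets, fewer cells of a type and less RNA per cell cannot be told apart, and the part of these shifts in the Dffb value was not tested. Leukocyte markers, of cells in which Casp1 is known to be active, overlapped: the sum of 12 was 307.2 to 377.1 in wildtype and 280.0 to 332.0 in deficient islets. Sums of 5 duct markers (264.8 to 315.3 and 235.0 to 286.6), 5 acinar markers (2984 to 7291 and 1835 to 6475) and 7 markers of other endocrine cells (20789 to 21760 and 21370 to 23811) overlapped as well, though the mean log2 values of the other endocrine markers did not (9.51 to 9.52 and 9.63 to 9.73). No marker was listed at 0.

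The partners of the pathway were taken from 10 lists with 80 genes, of which 73 were measured. In limma 0 rose and 0 fell over all genes tested, 8 had an unadjusted p under 0.05 (11.0%, where all genes gave 9.48%), and the median difference was -0.01. Groups did not overlap in 12 of the 73 (16.4%), close to the 15.1% of all genes. Of the 73, only Panx1 differed by more than 0.5. It encodes a membrane channel that caspases open by cleavage, and it read 5.11, 4.69 and 4.16 in wildtype and 3.63, 4.30 and 3.97 in deficient islets, overlapping between genotypes (difference -0.68 ± 0.25 SE, limma adjusted p = 0.431). Panx1 was named after its value had been seen.

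Upstream of caspase-8, 0 of 11 measured death receptors, ligands and adaptors passed the threshold in limma. An unadjusted p under 0.05 was found for 3 of the 11 (27.3%, beside 9.48% of all genes). Groups did not overlap in 4 of the 11 (36.4%, beside 15.1% of all genes), with the deficient arrays higher in all 4. The receptor gene Fas read 1.88, 2.31 and 2.23 in wildtype and 2.47, 2.38 and 2.84 in deficient islets, dim on all 6 arrays and higher on each deficient one (difference 0.42 ± 0.16 SE, limma adjusted p = 0.456). The TNF receptor gene Tnfrsf1a differed by -0.27 (95% interval -0.56 to 0.01). The adaptor gene Fadd differed by 0.03. Cflar, the caspase-8 regulator c-FLIP, differed by -0.09, close to the -0.09 of Casp8, its neighbour on the chromosome. For caspase-2, the PIDDosome genes Pidd1 and Cradd differed by 0.25 and 0.05 (0 of 2 passed, and 0 had an unadjusted p under 0.05 in limma).

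For caspase-9, 0 of 7 measured apoptosome and mitochondrial genes passed in limma (1, Cycs, at an unadjusted p under 0.05), with 5 lower and 2 higher. Cycs, the cytochrome c gene, was lower on each deficient array by the brightest of its 5 probe sets (difference -0.36 ± 0.12 SE, limma adjusted p = 0.400). Apaf1, the scaffold of the apoptosome, differed by -0.15 and Diablo, which counters the inhibitors of apoptosis, by -0.17. Of 9 measured inhibitors of apoptosis 0 passed and 0 had an unadjusted p under 0.05 in limma. Xiap, which blocks caspases directly, differed by -0.07 and Birc2 by 0.15.

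Below the caspases, 0 of 10 substrates and 0 of 6 measured other DNases passed in limma, with 1 and 1 at an unadjusted p under 0.05. Those were Panx1, described above, and Dnase2b. Dnase2b was dim on all 6 arrays and higher on each deficient one (difference 0.44 ± 0.12 SE, limma adjusted p = 0.308). Of the 6 DNases 3 were higher and 3 lower. Parp1, a DNA repair enzyme that executioners cleave, differed by -0.18 and Lmna, a lamin that caspase-6 cleaves, by -0.17. Endog, a mitochondrial nuclease that can also cut DNA in dying cells, read 4.78, 4.96 and 4.74 in wildtype and 4.24, 4.61 and 4.69 in deficient islets. All deficient values were lower, by a mean of 0.32 that did not pass (95% interval -0.64 to 0.01, limma adjusted p = 0.538).

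On the inflammatory side, 0 of 15 inflammasome and pyroptosis genes and 0 of 3 necroptosis genes passed, with 0 and 0 at an unadjusted p under 0.05 in limma. The sensor Nlrp3 differed by 0.09, the adaptor Pycard by -0.01, the pore protein gene Gsdmd by -0.12, and the caspase-1 substrates Il1b and Il18 by -0.30 and -0.08. The necroptosis kinase Ripk3 and its substrate Mlkl differed by 0.29 and 0.03. Casp4, which encodes the mouse caspase-11 and lies between Casp1 and Casp12 on the chromosome, read 2.02, 1.95 and 1.81 in wildtype and 2.24, 2.09 and 2.28 in deficient islets (difference 0.28 ± 0.11 SE, limma adjusted p = 0.475). It was higher on each deficient array and lay below the array median on all 6.

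Between ER stress and caspases, 0 of 7 measured genes passed in limma (1, Ern1, at an unadjusted p under 0.05). Ern1, which encodes the ER stress sensor IRE1α, read 8.15, 8.31 and 8.46 in wildtype and 8.78, 8.82 and 8.56 in deficient islets. It was higher on each deficient array, with a difference of 0.42 ± 0.12 (SE; limma adjusted p = 0.341). Ddit3, the gene of the stress factor CHOP, differed by 0.30 with a 95% interval of -0.10 to 0.70. Capn2, a calpain subunit reported to act on caspase-12, differed by 0.09.

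**Figure D3:**
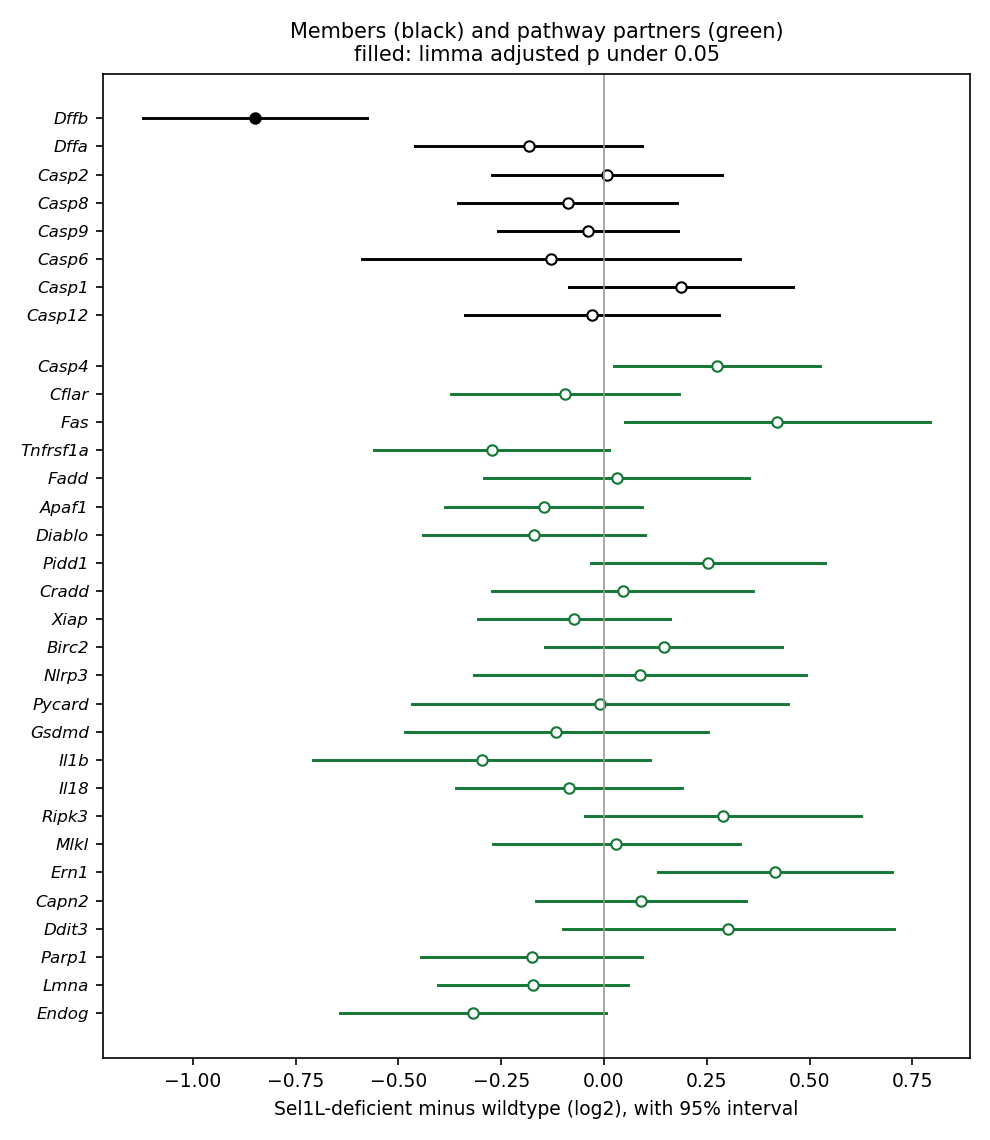
Sel1L-deficient minus wildtype log2 difference with its 95% interval from limma (x axis) for the 8 members (black) and the 24 measured key partners (green), filled where the adjusted p was under 0.05. Dffb at -0.85 is the only filled point; the intervals of Casp4, Fas and Ern1 lie above 0 but did not pass after adjustment.

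Among the named protein-coding genes of RefSeq, Casp1, Casp4 and Casp12 follow one another, as do Cflar and Casp8. The span of Casp9 overlaps that of Cela2a, an elastase gene of acinar cells, which is not analysed here. Ajap1, a neighbour of Dffb, differed by 0.11. Dffa is flanked by Pex14, a peroxisomal import gene, which differed by -0.19 with no overlap between genotypes, and by Cort, which differed by 0.34. Of the 12 neighbouring genes that were measured 0 passed the threshold and 2 had an unadjusted p under 0.05 (9.48% of all genes had one), with adjusted p in limma from 0.349 for Tmem139, beside Casp2, to 0.989 for Trak2, beside Casp8.

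The genes whose 6 values most resembled those of Dffb, among 7648 genes with a mean of at least 5, were Msmo1, an enzyme of sterol synthesis, Creg1, a secreted glycoprotein, and Clta, a clathrin light chain. Their Pearson r with Dffb over the 6 arrays was 0.996, 0.993 and 0.993, and they differed between genotypes by -0.63, -0.47 and -0.22. For Casp1, the member with the highest difference, they were Erlec1, an ER lectin, Pabpc1l2b and Cask, with r of 0.994, 0.976 and 0.973. The points share the arrays and their normalization, and the 3 were picked from 7648 genes on 6 arrays, so these values are a description only. Among the members, Casp2 followed Casp12 and Casp8 most closely over the same arrays (r = 0.92 and 0.83), and Dffa and Dffb had r = 0.61.

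**Figure D4:**
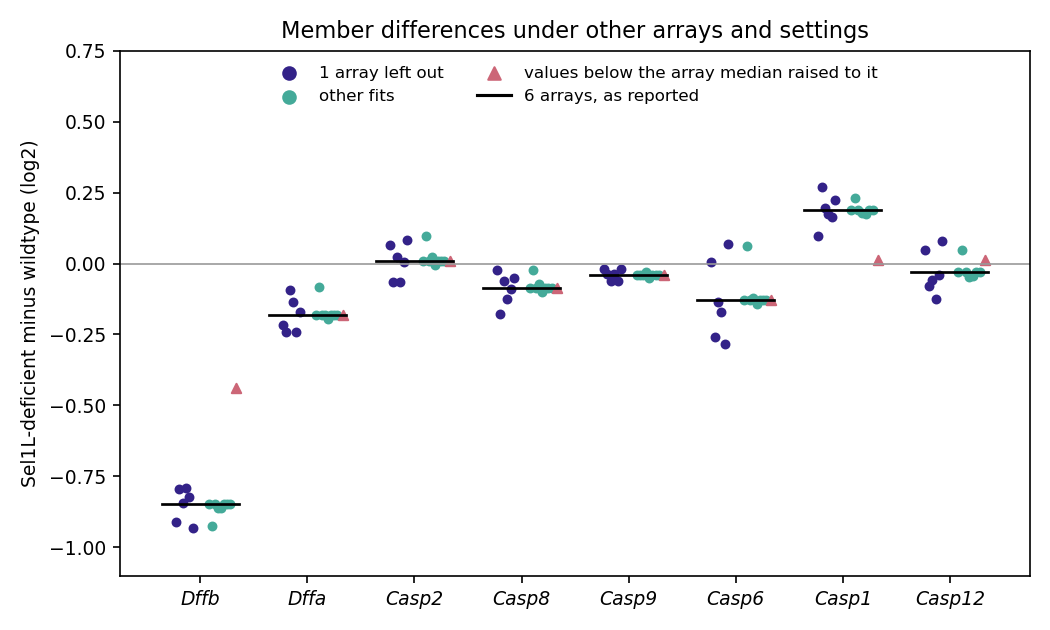
Sel1L-deficient minus wildtype log2 difference (y axis) of the 8 members (x axis) as reported (black line), with 1 array left out (purple), in the other planned fits (green) and with values below the array median raised to it (red triangle). Dffb stays between -0.93 and -0.79 in the planned fits and moves to -0.44 under the floor, and Casp2, Casp6 and Casp12 cross 0.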

How the data were processed

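Total RNA of islets was hybridised to Affymetrix arrays, 3 per genotype. The authors deposited log2 probe set values made with RMA, per the submitters' processing notes. RMA corrects background, normalizes between arrays and can shrink large ratios. The log base was read from the values (0.526 to 13.0), and the version, filters and scan batches are not given in the sources used here. With 3 arrays per group the number of arrays limits the precision.

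Of 41345 probe sets, 23521 had 1 gene symbol, 1814 several and 16010 none here. The brightest probe set by mean stood for each of 22180 genes. Entrez identifiers of 23328 matched RefSeq and 0 symbols changed. Differences were tested with limma 3.58.1 in R 4.3.3 (lmFit, eBayes, two-sided), with Benjamini-Hochberg adjustment over all genes and a threshold of 0.05. The fit was also run on simulated data with independent noise for each gene, without the sex and acinar differences between these arrays. That run does not bear on the Dffb call. The SEs, intervals and p-values set each difference against the spread between these arrays, after eBayes has drawn each gene's variance toward that of all genes. For a gene with little spread, such as Casp9, the printed SE is therefore larger than its own arrays would give.

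The members, partner lists and marker lists were chosen with earlier results of these data known. Named genes were the members, Sel1l, any called partner, 26 key partners (24 measured), and the 3 genes most like the members with the largest difference of each sign. Neighbouring genes, Panx1, Dnase2b and Cycs were added later. The sequences came from RefSeq's promoter table (8 of 8 members matched). The alternatives were a replicate block, each array left out, replicate 3 of both genotypes left out, a covariate for sex-linked transcripts, other centring and normalization, mean probe sets, a trended robust prior, dim genes left out, and a floor at the array median added after seeing the data.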

Additional observations from a re-analysis of the deposited data

How the results depend on the processing

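Dffb stayed past the threshold in 6 of the 15 alternatives, with limma adjusted p from 0.0292 to 0.203 over all 15. The 0.0292 came with dim genes left out, a filter at a mean of 3.12 over the arrays. Dffb, at 3.14, cleared that filter only through its wildtype arrays (mean 3.57, against 2.72 in deficient islets), so this call is no further support. Mean probe sets left the Dffb values as they were, since it has 1 probe set. Its difference was negative in all 15, but leaving arrays out could not turn the sign, since its groups do not overlap. The estimate was also -0.85 with the replicate block, the covariate for sex-linked transcripts, mean probe sets, the trended robust prior and dim genes left out. Those settings cannot move the Dffb estimate, so its sign there is no further evidence. The count of members called went from 1 to 0 with the replicate block (Dffb adjusted p = 0.0622), without any single array (0 in all 6 fits), without replicate 3 of both genotypes (0) and with the floor at the array median (0). The replicate numbers are not stated to pair the samples. The deviations of same-numbered arrays correlated at 0.10, 0.07 and 0.21, and those of unlike numbers at -0.13 to 0.04. Each array thus correlated best with its own number. Replicate 3 of both genotypes also shared sex-linked transcripts and more acinar RNA, and their part in these correlations was not tested. With the block 36 genes passed, 28 of them shared with the 54 reported. The count over all genes was 4 to 29 with 1 array left out, 1 on the 4 arrays without replicate 3, 133 with the trended robust prior and 33 with the floor. The Sel1l difference was -0.90 with the block (limma adjusted p = 0.0559), -0.97 to -0.82 with 1 array left out and -0.82 on the 4 arrays (limma adjusted p = 0.196), no longer past the threshold in these. The count of markers called was 4 as reported, 1 to 3 with 1 array left out (3 without Sel1L-deficient replicate 3), 0 on the 4 arrays and 1 with the floor. Partners called stayed at 0 in all 15 alternatives. The median of the members was -0.13 to 0.02 and that of the partners -0.04 to 0.01 in the 14 alternatives other than the floor. Casp1 moved from 0.19 to 0.01 with the floor, which takes its values out, and Casp1 and Casp12 had no value with dim genes left out. The cause of the lost calls was not tested. Without detection calls, whether Casp1, Casp12 and, in deficient islets, Dffb were above background is not settled.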
